A study of Mus musculus with 9 samples.

Results

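The genes described here are those of mouse chromosome 12, taken in order along their transcription start sites. A probe of the deposited table was kept where its first listed position was on chromosome 12, which gave 1036 probes. The 70 probes of the array's long noncoding series, whose names begin with A_30_P, were left out. So were 15 genes with large changes or descriptions of their own: the 2-cell-stage genes Gm2022, Gm8300, Gm21319 and Gm2016 (whose Ensembl gene has a probe named for Gm2022), the Tcl1 family, Ifi27, E2f6, Dlk1, Meg3 and Rtl1. Each remaining gene was represented by the probe with the highest mean signal, and 719 genes of 21580 on the whole array entered the description. RefSeq gave a symbol to 579 of them, and the other 140 are known here by their Ensembl identifier only.

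The chromosome was selected on measured values, the KO and WT signals of its genes, which appeared slightly higher in cells without RING1B (KO). The values of knockout against wild type on this chromosome are therefore given as a description and not as a test, and this holds also for the genes called in KO, which only says which probes passed the fit's threshold. The catalytic mutant played no part in the choice, and its values were tested. These tests use the same WT arrays that entered the choice, so they are not fully independent of it.

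The arrays measured polyadenylated RNA of mouse embryonic stem cells of the male line E14Tg2a (strain 129P2/OlaHsd), grown with serum and LIF. The 9 samples formed 3 groups of 3 without treatment or time series: the parental wild-type cells (WT), E14Tg2a-derived Ring1B -/- cells in which exon 3 of the RING1B gene Rnf2 is deleted (KO), and E14Tg2a-derived Ring1B I53A/I53A cells (I53A), whose RING1B lacks its E3 ligase activity. The table's KO columns share a single line name, and no further line of either mutant genotype is described for these arrays, so line and genotype cannot be told apart. The study names the 3 samples of a group biological replicates without saying whether they were separate cultures, so p-values cover the spread among these samples alone, and that spread may be technical.

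RING1B is the ubiquitin ligase subunit of Polycomb repressive complex 1, which holds developmental genes silent and binds mainly at CpG-rich gene starts. Loss of such a repressor can raise single target genes, and the study considers most expression changes in KO likely indirect. A change in the dose of a chromosome, or of a piece of it, can move most of its expressed genes by a similar small amount. Chromosome 12 carries homeobox and forkhead regulators that are silent in stem cells, and proteasome, translation and metabolic genes that every cell uses. Whether the values below come from lost repression, indirect effects or a change in dose was not tested, and DNA copy number was not measured on these arrays.

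Neither position nor promoter sequence was used to call a gene, and the starts of 4 genes that passed the threshold in a mutant show how different they are. The sequences are the 250 bases before the RefSeq start (GRCm38.p6), 5′ to 3′ along the gene, with every CpG dinucleotide in capitals. Sgpp1 (chr12:75735730-75735979, minus strand) and Gpx2 (chr12:76795555-76795804, minus strand) were higher in KO, Vrtn (chr12:84640769-84641018, plus strand) was higher in I53A, and Id2 (chr12:25096093-25096342, minus strand) was lower in KO.
Sgpp1: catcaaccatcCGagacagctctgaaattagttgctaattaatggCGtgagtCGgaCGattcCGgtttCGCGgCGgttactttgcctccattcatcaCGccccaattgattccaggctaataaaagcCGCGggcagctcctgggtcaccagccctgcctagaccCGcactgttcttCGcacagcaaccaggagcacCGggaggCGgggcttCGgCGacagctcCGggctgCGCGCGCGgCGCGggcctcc
Gpx2: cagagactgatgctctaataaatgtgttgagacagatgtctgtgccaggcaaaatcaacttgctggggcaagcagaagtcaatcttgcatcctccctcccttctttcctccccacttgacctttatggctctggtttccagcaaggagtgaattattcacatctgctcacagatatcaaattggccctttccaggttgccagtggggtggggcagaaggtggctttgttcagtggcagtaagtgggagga
Vrtn: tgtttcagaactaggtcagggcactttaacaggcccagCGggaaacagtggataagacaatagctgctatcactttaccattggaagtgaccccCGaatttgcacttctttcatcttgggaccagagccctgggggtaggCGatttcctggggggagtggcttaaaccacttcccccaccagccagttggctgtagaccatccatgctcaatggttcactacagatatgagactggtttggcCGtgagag
Id2: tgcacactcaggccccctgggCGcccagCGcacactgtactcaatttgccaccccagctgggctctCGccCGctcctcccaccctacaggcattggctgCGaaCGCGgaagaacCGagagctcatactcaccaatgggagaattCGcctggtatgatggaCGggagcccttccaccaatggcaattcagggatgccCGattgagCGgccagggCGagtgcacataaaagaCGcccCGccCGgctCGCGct

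The Sgpp1 start held 24 CpG, a number reached by 12% of the 32851 RefSeq promoters over the same 250 bases. The Id2 start held 18 (reached by 21.7%), the Vrtn start 4 (reached by 62.2%) and the Gpx2 start 0, as in 7.87% of promoters. Of the 719 genes, 505 had a promoter in the RefSeq table, with a median of 15 CpG against 6 over all promoters. The 11 genes with such a promoter that were called higher in KO had a median of 8. Among genes with a mean log2 signal above 7 the KO change was similar at both levels of CpG content. The median log2 fold change (log2FC) was 0.16 in the 121 with at least 10 CpG and 0.13 in the 27 with fewer.

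Signals are quantile-normalised log2 intensities, and a log2FC is the difference of group means on that scale. Between 45.4% and 57.5% of the probes on an array were well above background. Genes with a mean signal above 7 over the 9 arrays are called bright here, and 184 of the 719 genes were. The others include many that are not expressed in stem cells, among them most of the 81 genes that start within the immunoglobulin heavy chain locus, of which 2 were bright. Rnf2, the targeted gene, read 8.32, 8.27 and 8.47 in WT, 7.35, 7.92 and 8.08 in KO and 8.69, 9.1 and 8.59 in I53A, with the KO arrays below the WT arrays. Where its probe lies relative to exon 3 was not established, so this does not check the labels. All 8 stem cell markers measured, Pou5f1, Tdgf1, Nanog, Utf1, Esrrb, Dppa4, Sox2 and Klf4, were above background on 9 arrays. Of 8 fibroblast markers 4 were (Thy1, Col1a2, Col1a1 and Col3a1), while Pdgfrb, Lum and Postn were above background on 0 arrays. The linear signals of the 5 primitive endoderm markers were summed. The log2 of that sum was 7.36 to 7.92 in KO against 5.68 to 6.48 in WT and 6.26 to 6.41 in I53A. Gata6 was the brightest of the 5 on each array and weighs most in the sum (6.55, 7.01 and 7.07 in KO), and Sox7 and Pdgfra were above background on 0 arrays. The part of these markers in the values below was not tested, and fewer cells of a type and less RNA per cell cannot be told apart in bulk samples.

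The higher KO level of chromosome 12 was small and was seen among the bright genes. Over all 719 genes the median log2FC in KO was 0.03, with the middle of the distribution running from −0.30 to 0.38 (quartiles), against −0.04 for the 18201 genes of the other autosomes without chromosome 11. Among the 184 bright genes the median was 0.15 against −0.08, a difference of 0.23, and 58.7% of them lay above 0 against 43.5% of bright genes elsewhere. The 535 genes that were not bright had a median of −0.01, close to the −0.02 of such genes on the other autosomes. Chromosome 11 was left out of the reference because its own genes shifted further, with a median of 0.36 in KO among its bright genes when read on the same scale, 0.44 above the other autosomes. The 4 genes put aside around Gm5039 (Gm2016, Gm2022, Gm8300 and Gm21319), with log2FC between 4.81 and 7.24 in KO, had no part in these medians. Without the genes called in KO, described below, the bright difference was again 0.23.

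Array by array, the bright genes of chromosome 12 deviated from the WT mean, relative to the other autosomes, by 0.00, −0.02 and 0.03 in WT, by 0.15, 0.16 and 0.20 in KO and by 0.03, 0.03 and 0.06 in I53A. All 3 KO arrays lay above all WT and I53A arrays. The fitted KO difference of 0.23 is a different measure, the median of gene-wise differences of group means, and was larger than each KO array's value. The I53A arrays overlapped the WT arrays. The difference of I53A from WT, 0.04 in the fit, gave an exact two-sided permutation p of 0.3, where 0.1 is the smallest that 3 against 3 arrays allow. Over all 719 genes the I53A difference was 0.02, with an exact two-sided permutation p of 0.5. Arrays in the same slide and row deviated together, and the KO difference was 0.16, 0.23 and 0.14 within the 3 such sets. On slide 1 alone it was 0.22. With normexp background correction of the median spot signals and an offset of 50, in place of the scanner software's processed signals, the KO difference was 0.11 and the I53A difference 0.00.

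Whether the rise was local was read from 6 segments of 20 Mb, numbered from the start of the chromosome, with 74, 82, 71, 110, 129 and 253 genes, of which 22, 26, 27, 30, 38 and 41 were bright. Relative to bright genes of the other autosomes, the KO medians of the bright genes were 0.32 in segment 1, 0.23 in segment 2, 0.17 in segment 3, −0.01 in segment 4, 0.23 in segment 5 and 0.21 in segment 6. In this fit 5 of 6 segments lay above the other autosomes, and segment 4 (60 to 80 Mb) lay at their level. In segments of 10 Mb, 10 of 12 lay above the other autosomes, and in segments of 40 Mb, 3 of 3, the middle one by little (−0.07 against −0.08). Position along the chromosome and KO log2FC had a Spearman's rho of −0.04 across the 184 bright genes, which share their arrays. Over all genes, bright or not, the KO differences from the other autosomes were 0.19, 0.01, 0.09, 0.15, 0.07 and 0.00 in segments 1 to 6. Segments 2 and 6 then lay near the level of the other autosomes and segment 4 above it. The pattern along the chromosome therefore depended on the limit for bright genes.

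**Figure D1:**
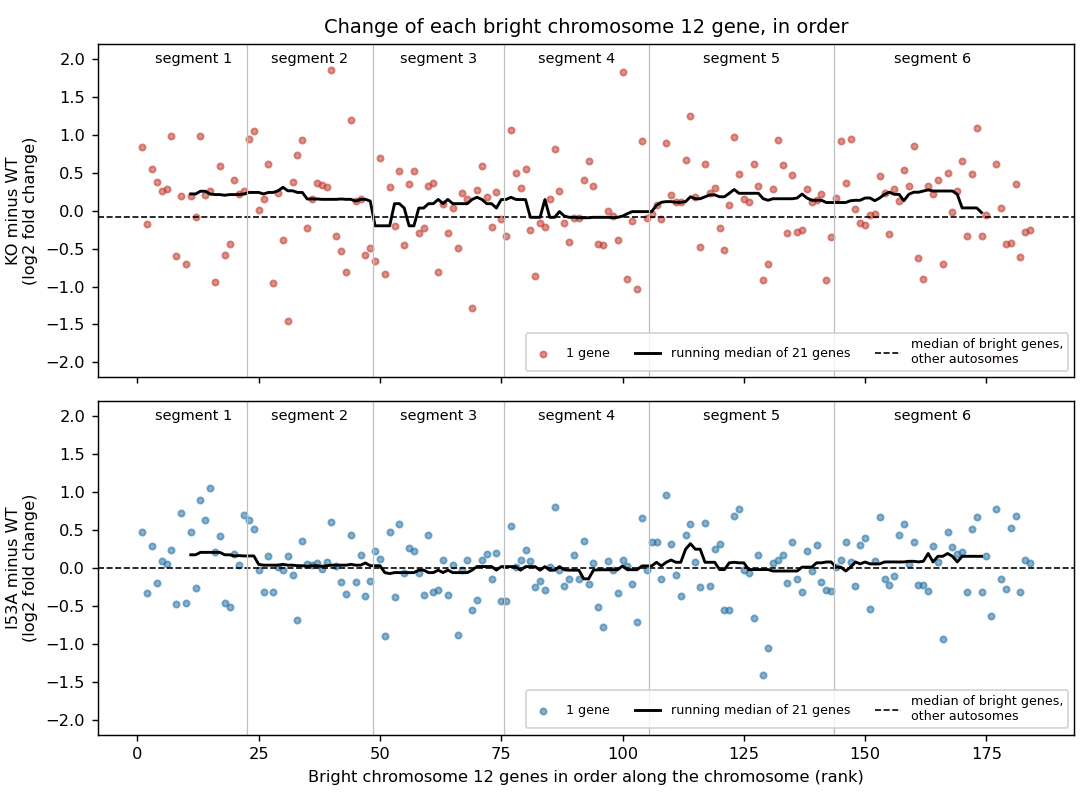
Log2FC of the 184 bright chromosome 12 genes in KO (top) and I53A (bottom) against WT, in order along the chromosome; points are genes, the solid line is the median of 21 neighbouring genes and the dashed line the median of bright genes of the other autosomes (−0.08 in KO). In KO the running median lies above the dashed line in 142 of 164 windows and is lowest, at −0.20, across the end of segment 2 and segment 3; in I53A it does so in 111 of 164.

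The spread between genes was much wider than the shift. A running median of 21 bright neighbours in KO reached 0.31 between Pdia6 and Bcap29 (17.3 to 31.6 Mb) and fell to −0.20 between Cbll1 and Sptssa (31.5 to 54.7 Mb). Of 183 pairs of bright neighbours, 74 (40.4%) had both genes above the median of the other autosomes and 26 both below it. On the other autosomes these shares were 24.9% and 24.9%, and on chromosome 11 they were 63.6% and 5.56%. In I53A the shares on chromosome 12 were 25.7% and 16.4%. A shift of the whole chromosome raises the share of pairs above the median by itself. These shares therefore do not show whether neighbours moved together more than other genes of the chromosome.

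The single arrays showed how far the groups separated in each segment. In segment 1 the KO arrays deviated by 0.29, 0.28 and 0.32 and the WT arrays by −0.05, −0.03 and 0.10. In segment 4 the KO arrays deviated by 0.13, 0.09 and −0.01 and the WT arrays by 0.01, −0.02 and 0.05, and the groups overlapped. In segment 5 the KO arrays deviated by 0.18, 0.17 and 0.32 and the WT arrays by 0.00, 0.02 and 0.01. The KO arrays lay above the WT arrays in segments 1, 2, 3, 5 and 6, in segment 3 narrowly, with a lowest KO array of 0.06 and a highest WT array of 0.05. The fitted difference of segment 3 was unstable: without KO 3 it was 0.01, against 0.17 with it. Its KO arrays deviated by 0.08, 0.12 and 0.06, with KO 3 the lowest. Within the 3 sets of arrays that share a slide and row, the KO differences were 0.29, 0.37 and 0.27 in segment 1, 0.08, 0.16 and −0.04 in segment 3, 0.06, 0.17 and 0.04 in segment 4 and 0.02, 0.22 and 0.29 in segment 6. Read within these sets, segment 4 was also above the other autosomes each time, and segment 3 was not. Over the settings tried, segment 1 ranged from 0.25 to 0.33, segment 2 from 0.19 to 0.29, segment 3 from 0.01 to 0.19, segment 4 from −0.04 to 0.07, segment 5 from 0.17 to 0.30 and segment 6 from 0.06 to 0.21. The lowest value of segment 6 came with normexp, described above, and was no larger than that segment's SD between WT arrays of 0.06.

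**Figure D2:**
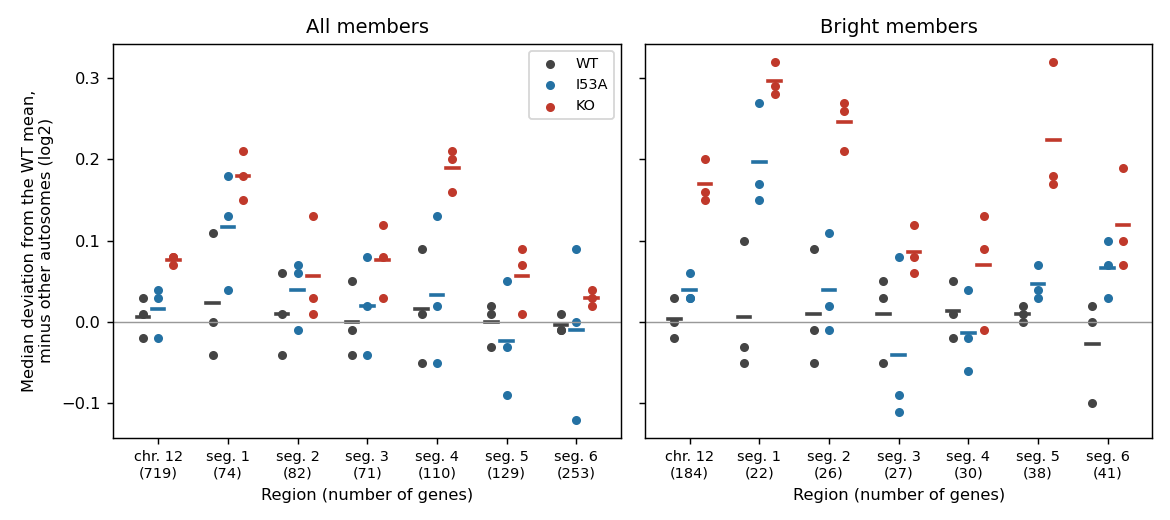
Median deviation of each array from the WT mean, relative to the other autosomes (log2), for the whole chromosome and for its 6 segments of 20 Mb; points are arrays, bars are means of 3, and the numbers in brackets are genes. Among bright genes (right) the 3 KO arrays lie above the 3 WT arrays for the whole chromosome, at 0.15 to 0.20 against −0.02 to 0.03, and in every segment except the fourth.

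In segment 4 the genes that were not bright had higher medians than the bright ones. Its 80 such genes had a median log2FC of 0.20 in KO, against −0.02 for genes of that kind on the other autosomes, while its 30 bright genes had −0.09. Over all 110 genes of segment 4 the arrays deviated by 0.16, 0.21 and 0.20 in KO and by 0.01, −0.05 and 0.09 in WT.

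The higher KO level was found in protein-coding genes. The 165 bright protein-coding genes had a median log2FC of 0.16 in KO and lay 0.24 above such genes of the other autosomes. The 18 bright genes without a RefSeq symbol had a median of −0.17, near the −0.10 of the 397 such genes elsewhere. Several of the brightest signals on the chromosome belong to this class, among them ENSMUSG00000066487 in segment 3 (14.62, 14.86 and 14.46 in WT, 14.67, 14.63 and 15.37 in KO, log2FC 0.25, SE 0.25) and ENSMUSG00000098224 in segment 4 (14.83, 14.55 and 14.69 in WT, 14.75, 14.39 and 14.67 in KO, log2FC −0.09, SE 0.21).

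Against the autosomes as a whole, chromosome 12 stood between chromosome 11 and the rest. The other autosomes held 114 segments of 20 Mb with at least 10 bright genes, and their KO medians ran from −0.41 to 0.22 around −0.08. The 0.24 of segment 1 was reached by 0 of them, the 0.15 of segments 2 and 5 by 2 and 3, the 0.13 of segment 6 by 3, the 0.09 of segment 3 by 4 and the −0.09 of segment 4 by 61. The 7 segments of chromosome 11 lay between 0.24 and 0.45. In I53A the chromosome 12 segments lay between −0.03 and 0.19 and those of chromosome 11 between −0.07 and 0.04, against −0.22 to 0.18 elsewhere.

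**Figure D3:**
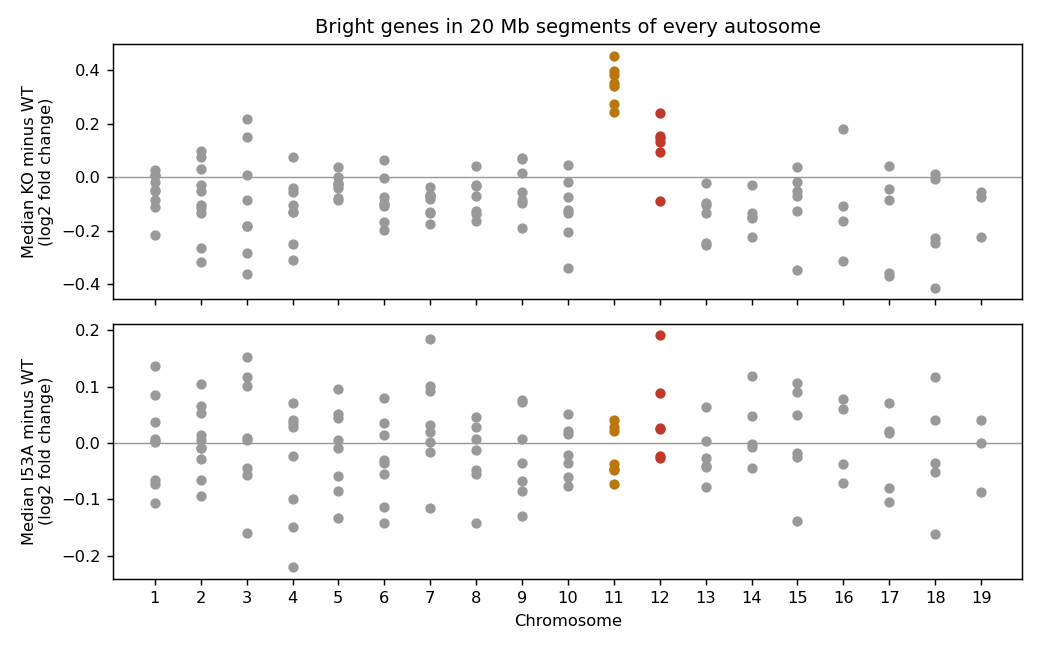
Median log2FC of bright genes in each 20 Mb segment with at least 10 such genes, by autosome, for KO (top) and I53A (bottom) against WT; chromosome 12 is red, chromosome 11 brown and the others grey. In KO the segments of chromosome 12 run from −0.09 to 0.24, below those of chromosome 11 (0.24 to 0.45) and mostly above the others (median −0.08).

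Among bright genes the I53A arrays of segments 1, 5 and 6 lay above the WT arrays without overlap. In segment 1 the I53A arrays deviated by 0.27, 0.15 and 0.17 and the WT arrays by −0.05, −0.03 and 0.10. The fitted difference relative to the other autosomes was 0.19 over 22 bright genes, and the highest of the 114 segments elsewhere had a median of 0.18 beside the 0.19 of segment 1. The exact two-sided permutation p was 0.1, the smallest possible, for segments 1, 5 and 6 and between 0.5 and 0.6 for segments 2, 3 and 4. Adjusted over the 6 segments by Benjamini-Hochberg it was 0.2 for segments 1, 5 and 6. With 3 arrays a group no segment could have passed, so these p-values do not settle whether I53A differed. Segments 5 and 6 differed by 0.02 and 0.09. Over all their genes, bright or not, segments 1, 5 and 6 differed by 0.10, −0.02 and 0.02. The permutations did not use the sets of arrays that share a slide and row. Within these sets the bright I53A differences were 0.32, 0.15 and 0.10 in segment 1. They were −0.09, 0.08 and 0.12 in segment 5 and 0.10, 0.11 and 0.13 in segment 6. KO and I53A were set against the same WT arrays, so their values, in segment 1 as elsewhere, are not independent of each other.

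Calls of single genes were few. A gene was called where limma gave a Benjamini-Hochberg adjusted p under 0.05 over all 30170 probes and the change was over 2-fold. In KO 17 of the 719 genes were called higher (2.36% of them, beside 2.73% of all probes) and 5 lower (0.695%, beside 1.11%). In I53A 1 was called higher (0.139%, beside 0.235%) and 0 lower (beside 0.0928%). With 1 probe per gene, 637 of the array's 21580 genes were called higher and 246 lower in KO, and 63 and 24 in I53A. By an unadjusted p under 0.05, I53A had 49 higher (6.82%, beside 5.37% of probes) and 28 lower (3.89%, beside 3.83%). By that limit KO had 88 higher (12.2%, beside 9.64%) and 48 lower (6.68%, beside 7.77%). Of the 184 bright genes, 37 had every KO array above every WT array (20.1%, beside 13.8% of bright genes of the other autosomes) and 30 had every KO array below (16.3%, beside 23.4%). In I53A these were 25 (13.6%, beside 12.7%) and 24 (13%, beside 14.3%). The called genes were spread over segments 2 to 6, with 2, 1, 6, 3 and 5 higher and 1, 1, 1, 0 and 2 lower, and segment 1, with the highest bright median, held 0 of them.

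**Figure D4:**
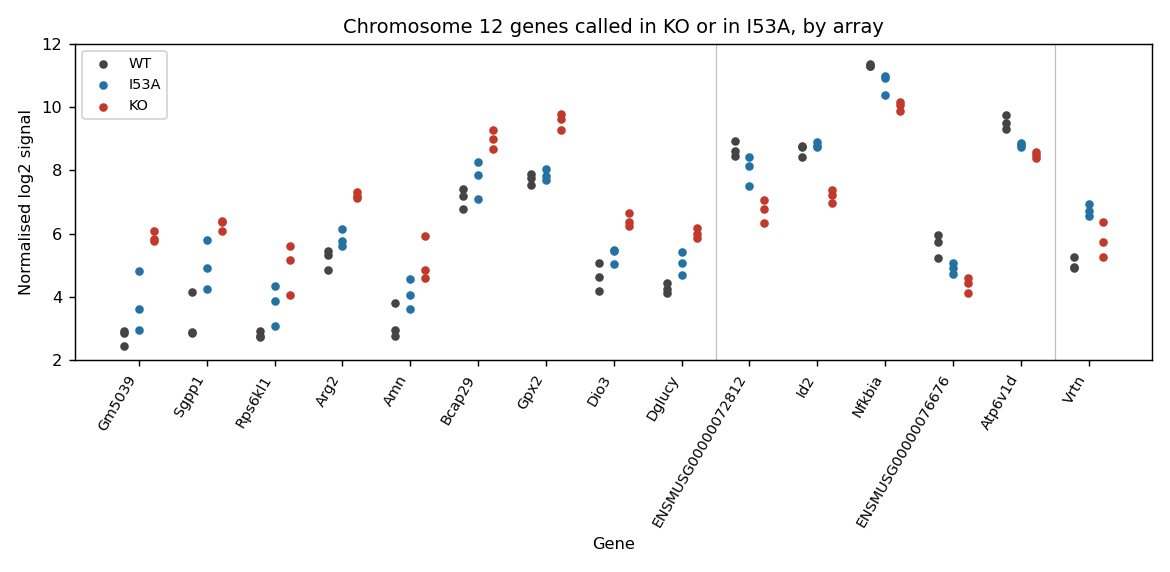
Normalised log2 signal on each of the 9 arrays for 9 of the 10 genes with the largest KO increase among those called (left), the 5 called lower in KO (middle) and the 1 gene called in I53A (right); points are arrays. Gpx2 and Id2 have I53A arrays at the WT level, while for all 9 genes on the left the I53A mean lies between those of WT and KO.

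Of the 10 genes with the largest increase, 8 were above background on 0 WT arrays. Sgpp1, a phosphatase that degrades sphingosine-1-phosphate (75714248 to 75735729, GRCm38), read 2.84, 2.88 and 4.14 in WT, above background on 0 arrays, 6.07, 6.37 and 6.4 in KO and 4.91, 4.25 and 5.78 in I53A. Its KO arrays lay above all others, and by the processed signals KO was at least 5.92-fold higher than WT. Arg2, the mitochondrial arginase (79130788 to 79156301), read 5.32, 4.84 and 5.46 in WT, 7.31, 7.20 and 7.13 in KO and 5.77, 5.60 and 6.14 in I53A, and KO was at least 4.02-fold higher. For both genes the I53A arrays lay above the WT arrays and below the KO arrays, without passing the test (at least 2.40-fold, limma adjusted p 0.187, for Sgpp1 and at least 1.55-fold, limma adjusted p 0.46, for Arg2).

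Gpx2, a glutathione peroxidase of epithelia (76792335 to 76795554), was already expressed in WT. It read 7.76, 7.90 and 7.54 in WT, 9.77, 9.61 and 9.29 in KO and 7.81, 8.03 and 7.68 in I53A, with a KO log2FC of 1.83 (SE 0.23) and an I53A log2FC of 0.11 (SE 0.23, limma adjusted p 0.932). This is the gene whose start holds no CpG. Bcap29, a membrane protein of the endoplasmic reticulum, read 7.19, 7.40 and 6.79 in WT, 9.29, 8.67 and 9.0 in KO and 7.09, 8.26 and 7.86 in I53A, with a KO log2FC of 1.86 (SE 0.33).

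Gm5039, a transcribed pseudogene, lies near the 2-cell-stage genes that were left out. It read 2.84, 2.44 and 2.93 in WT, above background on 0 arrays, 5.84, 5.77 and 6.09 in KO and 3.60, 2.94 and 4.81 in I53A, and KO was at least 4.68-fold higher. Whether its probe also binds transcripts of that family was not tested, so its signal is uncertain.

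Dio3, the deiodinase that inactivates thyroid hormone and lies at the edge of the imprinted Dlk1 to Dio3 domain, read 4.19, 5.06 and 4.61 in WT, 6.36, 6.66 and 6.23 in KO and 5.03, 5.45 and 5.48 in I53A, and KO was at least 3.47-fold higher. Mirg, a long noncoding RNA of the same domain, moved the other way without being called (log2FC −0.90, SE 0.28), and Begain, at the other edge, was at background in all groups. Of the 4 imprinted genes not left out, 3 were measured and 1 was called in KO. Dglucy, the D-glutamate cyclase, was at least 3.34-fold higher in KO (4.13, 4.45 and 4.23 in WT against 5.98, 6.18 and 5.87). Amn, a subunit of the cobalamin uptake receptor, was at least 2.73-fold higher and Rps6kl1, a kinase-like protein, at least 2.39-fold, each above background on 1 of 3 KO arrays. The other 7 genes called higher had log2FC from 1.05 (ENSMUSG00000069755) to 1.69 (Hspa2, a testis-enriched HSP70), among them Rpl10l (1.07), a retrogene whose probe may also read its parent Rpl10.

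The 5 genes called lower in KO included Id2 and Nfkbia. Id2, an inhibitor of basic helix-loop-helix transcription factors (25093799 to 25096092), read 8.74, 8.41 and 8.78 in WT, 7.21, 7.38 and 6.97 in KO and 8.91, 8.77 and 8.74 in I53A. The KO arrays lay below all others (log2FC −1.46, SE 0.22), and the I53A log2FC was 0.16 (SE 0.22, limma adjusted p 0.873). Nfkbia, the inhibitor that holds NF-kB in the cytoplasm (55489409 to 55492647), read 11.36, 11.29 and 11.31 in WT, 9.88, 10.07 and 10.15 in KO and 10.91, 11 and 10.39 in I53A (KO log2FC −1.28, SE 0.23). Atp6v1d, a subunit of the vacuolar proton pump, had a KO log2FC of −1.03 (SE 0.21) and an I53A log2FC of −0.71 (SE 0.21, limma adjusted p 0.271). The other 2 have no RefSeq symbol: ENSMUSG00000072812 (log2FC −1.94, SE 0.30) and, in the immunoglobulin heavy chain locus, ENSMUSG00000076676 (log2FC −1.26, SE 0.25, above background on 1 of 3 KO arrays).

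Of the genes named above, 8 were called in KO without any single array: Gm5039, Sgpp1, Arg2, Gpx2, Dio3, Dglucy, Id2 and ENSMUSG00000072812. Bcap29 lost its call without WT 3 and Nfkbia without WT 1. Amn, Rps6kl1, Atp6v1d and ENSMUSG00000076676 each lost it without any of 4 or 5 of the arrays. With normexp 3 genes were called higher and 2 lower, and Arg2, Gpx2, Id2 and ENSMUSG00000072812 were among them. The KO log2FC with normexp was 0.92 for Sgpp1, 0.89 for Gm5039, 0.82 for Dio3 and 0.68 for Dglucy. It was 0.54 for Rps6kl1 and 0.47 for Amn, and all of these were smaller changes than the folds given as "at least".

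Vrtn, a vertebrate-specific gene linked to the number of vertebrae (84641019 to 84651455), was the 1 gene called in I53A. It read 5.25, 4.92 and 4.95 in WT, 6.54, 6.93 and 6.72 in I53A and 5.26, 5.72 and 6.37 in KO. All I53A arrays lay above all WT and KO arrays, with an I53A log2FC of 1.69 (SE 0.29, limma adjusted p 0.0495). This call stood at the threshold. It was lost without 7 of the 9 arrays in turn (WT 1, WT 2, WT 3, KO 2 and each I53A array), and the adjusted p ran to 0.349 on slide 1 alone. Its KO log2FC was 0.74 (SE 0.29).

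Developmental regulators had changes in both directions. Of 17 measured, 15 were not bright, 9 had a KO log2FC above 0 and the median was 0.09, beside 0.03 for all 719 genes. Of the 17, 2 were called higher (beside 2.73% of all probes) and 1 lower (beside 1.11%). The shares of all probes given with the calls above also stand beside the counts of the other lists. Foxa1, a forkhead factor of endoderm and above background on 0 WT arrays, was at least 1.88-fold higher in KO and at least 1.69-fold in I53A (limma adjusted p 0.248) and was called in neither. Meox2, a homeobox factor of mesoderm and above background on 0 KO arrays, was at least 1.65-fold lower in KO without being called, and Id2 was the 1 regulator called lower. In I53A 0 of the 17 were called by limma, and the median was 0.13. By an unadjusted p under 0.05, 3 were higher (beside 5.37% of all probes) and 0 lower (beside 3.83%).

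Genes of core cell functions, 19 of them bright, had a median near that of the bright genes. Of 20 measured, 13 had a KO log2FC above 0, with a median of 0.19, and Atp6v1d was the 1 gene called. Dlst, a subunit of the 2-oxoglutarate dehydrogenase complex, read 9.11, 8.84 and 8.03 in WT and 9.42, 9.68 and 9.79 in KO (log2FC 0.97, SE 0.34), with the KO arrays above the WT arrays. Rrm2, the small subunit of ribonucleotide reductase, had −0.39 (SE 0.24). Ywhaq, a 14-3-3 protein and the brightest gene of segment 2, had 0.61 (SE 0.40), with KO 3 highest (13.59 beside 12.23 and 11.97), and I53A 3 was missing as an outlier spot. Hsp90aa1, the stress-inducible HSP90 and the brightest of segment 6, had 0.22 (SE 0.25), with WT 3 missing. In I53A the median of the 20 was 0.02 and 0 were called by limma, with 1 higher and 1 lower by an unadjusted p under 0.05.

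The 12 genes of chromatin and RNA silencing had a median of 0.21 in KO and −0.16 in I53A. None was called by limma in either mutant, and by an unadjusted p under 0.05 just 1 was lower in KO, with 0 higher, and 0 differed in I53A. Jdp2, a bZIP repressor, had a log2FC of 0.61 (SE 0.35) in KO and −0.66 (SE 0.35, limma adjusted p 0.641) in I53A. Asxl2, a cofactor of the histone H2A deubiquitinase, had −0.62 (SE 0.25) in KO. Hdac9, a histone deacetylase, was above background on 1 of the 9 arrays.

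The 3 stem cell regulators listed all had a KO log2FC under 0. Mycn, the MYC-family factor, read 10.39, 10.42 and 10.70 in WT, 9.59, 9.51 and 9.60 in KO and 10.80, 10.62 and 10.71 in I53A. Its KO log2FC of −0.94 (SE 0.20) was just under the 2-fold threshold, and the KO arrays lay below the WT and I53A arrays. Esrrb, an orphan nuclear receptor of the naive state, read 11.84, 12.45 and 11.58 in WT, 10.62, 10.91 and 11.58 in KO and 10.04, 11.25 and 10.35 in I53A, with log2FC −0.92 (SE 0.38) in KO and −1.41 (SE 0.38, limma adjusted p 0.213) in I53A. The highest KO array equalled the lowest WT array, and 0 of the 3 genes were called by limma in I53A (0 higher and 1 lower by unadjusted p). Zfp36l1, an RNA-binding protein that destabilises transcripts, had −0.04 (SE 0.33) in KO.

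Genes grouped by the start of their symbol had medians near 0 in KO. Of the 19 Serpina genes, protease inhibitors secreted mainly by the liver, 0 were bright, 9 had a KO log2FC above 0, the median was 0.00 and 0 were called in KO (by unadjusted p, 2 were higher and 2 lower) or in I53A (0 and 0 by unadjusted p), both by limma. Of the 6 Acot genes, acyl-CoA thioesterases, 2 were bright, the median was 0.09 in KO and 0.12 in I53A and 0 were called in either by limma (by unadjusted p, 1 higher and 0 lower in KO, 0 and 0 in I53A). The 5 genes whose symbol begins with Zfp had a median of −0.04 in KO and 0.34 in I53A, with 0 called by limma (by unadjusted p, 0 higher and 1 lower in each mutant).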

How the data were processed

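The 9 samples each had an array of their own, an Agilent SurePrint G3 mouse design read in Cy3 alone. Per the file headers and the study's methods, the authors extracted spots with Agilent Feature Extraction, which gives a background-subtracted processed intensity on a linear scale. The deposited series table holds log2 intensities that the authors quantile normalised with limma after averaging repeated probes, for 30170 probes assigned to 1 Ensembl gene, with positions in mm10 (same coordinates as GRCm38). Its columns carry group names but no replicate numbers. Its log2 fold changes and p-values, the authors' own comparisons, were not used. Other deposited columns used were spot flags, which count as other values.

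Here log2 processed intensities were quantile normalised over 55681 non-control probes without outlier-flagged spots, and the 30170 probes were fitted in limma 3.58.1 (R 4.3.3) with a mean for each group, leaving 6 residual degrees of freedom. Each array's number of spots, 62976, is fixed, so the 3 arrays per group limit the precision. Medians and permutations used Python 3.11.15 with pandas 2.3.3, and the fit was tested on simulated data. Symbols came from RefSeq (GRCm38.p6) by transcript accession on the same chromosome. A fold given as "at least" sets the brighter group's mean against the dimmer group raised on each array to the lowest signal of probes well above background. Where the dimmer group already lay above that signal, it equals the plain fold. It applies to the processed signals and is no lower limit under other background corrections.

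The genes, segments and lists were chosen with earlier results of these data known. Named genes were the 10 highest and 5 lowest called in KO, those called in I53A, the brightest of each segment, and the extremes of the listed groups; some of these are not reported here. Alternatives were 75th-percentile scaling, normexp, the deposited table, a filter on dim probes, slide and replicate blocks and leaving out each array. The normexp alternative was planned on mean spot signals and was run on the median spot and background signals of the scan files, with an offset of 50. Title numbers did not pair the arrays (correlations of same-numbered deviations from −0.321 to 0.389). Arrays of 1 slide row did deviate together (0.115 to 0.433), so that block was added after seeing the data. Slide columns each held a single group, and these cannot be told apart.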

Additional observations from a re-analysis of the deposited data

How the results depend on the processing

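The bright genes of chromosome 12 and of segments 1, 2, 3, 5 and 6 lay above the other autosomes in KO under the settings tried, while segment 4 changed sign between −0.04 and 0.07. Segment 6 fell to 0.06 with normexp and segment 3 to 0.01 without KO 3. The bright KO difference of 0.23 became 0.11 with normexp, 0.20 with 75th-percentile scaling and 0.18 with a bright limit of 6, and ran from 0.18 to 0.24 without single arrays. That of I53A (0.04) became 0 with normexp and 0 with a limit of 6, and ran from 0.01 to 0.05 without single arrays. Of the 6 segments, 5 or 6 lay above the other autosomes in KO and 3 to 5 in I53A when single arrays were left out. The median over all genes was less stable: 0.03 in KO became −0.04 with 75th-percentile scaling, 0 with normexp, 0.09 without dim probes and 0.15 over bright genes alone, with 0.01 to 0.04 without single arrays, and in I53A 0.01 became 0.05 over bright genes alone and ran from 0 to 0.02 without single arrays. The 75th-percentile scaling moved the bright genes of the other autosomes from −0.08 to 0.15 in KO, so chromosome 12 is given relative to them.

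Calls in KO fell from 17 higher and 5 lower to 3 and 2 with normexp and to 5 and 0 on slide 1 alone, where fewer arrays entered, and ran from 7 to 19 higher and from 2 to 6 lower without single arrays. The lowest counts came without WT 3 or KO 3 (7 higher each) and without WT 1 (2 lower). WT 1, WT 2 and KO 2 left out gave 9, 11 and 8 higher. In I53A the 1 call was 0 with 75th-percentile scaling, normexp, the slide block, slide 1 alone and the slide row block, and 0 or 1 without single arrays. The replicate block of title numbers, which share only a number, gave 13 higher and 4 lower in KO and 0 in I53A. It ended the calls of Atp6v1d (adjusted p 0.0592) and Vrtn. The slide row block, chosen after seeing the data, gave 18 higher and 6 lower. The cause of these differences was not tested. No called gene changed sign. Signals near background limit what the 535 genes that were not bright can show.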

Other observations

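The 70 long noncoding probes of chromosome 12 that were left out held 0 genes called by limma in KO and 0 in I53A, with 7 at an unadjusted p under 0.05 in KO. The 15 genes left out by name included Ifi27, an interferon-induced gene, with a log2FC of 4.14 in KO and −0.13 in I53A, and with all of them put back the median of the bright genes in KO again lay 0.23 above the other autosomes. Within the immunoglobulin heavy chain locus the 81 genes had a median log2FC of −0.13 in KO and 0.01 in I53A.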
